A study of Drosophila melanogaster with 12 samples.

Results

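The cytoplasmic ribosomal protein genes of Drosophila melanogaster were chosen by name, as every gene whose symbol begins with RpL or RpS followed by a digit, the stalk genes RpLP0, RpLP1 and RpLP2 with their -like copies, and sta, which encodes the small subunit protein RpSA. Genes of mitochondrial ribosomal proteins were left out. The rule found 93 of the 16775 genes in the table, through 235 of its 35327 transcript rows. The rule uses names only. Of the 93 genes, 54 belong to the large subunit and 39 to the small subunit.

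Ovarian somatic cells (OSC) are an established line of somatic cells from the fly ovary that silences transposons through the Piwi-piRNA pathway. The cells had received a knockdown against EGFP, which serves as the control (siEGFP), or against eggless (siEgg), both for 4 days, and all were crosslinked with 1% formaldehyde. Chromatin was precipitated with an antibody to Egg and sequenced beside input DNA. The labels name 12 samples in 8 groups, of which the siPiwi and siWde groups were not analysed here. The table holds 1 column for each of 4 groups, siEGFP input, siEGFP Egg ChIP, siEgg input and siEgg Egg ChIP, while the labels name 2 samples in each of these. A column may therefore be 1 sample or a pool, there is no spread between replicates, and every interval below covers counting error only. The libraries hold DNA, so neither the cell type nor the loss of the eggless transcript could be checked.

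The deposited values were RPKM, and whole reads were recovered from their steps. The recovered depths were 2183061 reads for the siEGFP input, 1796866 for the siEGFP ChIP, 2293964 for the siEgg input and 1698148 for the siEgg ChIP, of which 33.6% to 36.8% lay in the rows of the table. At that depth a ribosomal protein gene held a median of 11 siEGFP input reads and 14 siEGFP ChIP reads, with ranges of 0 to 56 and 1 to 241. Most single genes therefore carry wide intervals.

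Ribosomal proteins are the structural partners of ribosomal RNA, and cells need them in near equal amounts, so their genes are among the most strongly transcribed of the genome. Many of them in the fly give the dominant Minute phenotype of short bristles and slow development when 1 copy is lost. Eggless, the fly SETDB1, adds methyl groups to lysine 9 of histone H3, a mark of silent chromatin. A few ribosomal protein genes of the fly lie within pericentromeric heterochromatin or on the small chromosome 4, where this mark is abundant.

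In control cells the ribosomal protein genes held more Egg ChIP than input signal. Summed over all 93 genes, there were 1127 input and 1755 ChIP reads in siEGFP, which is 1.89-fold more per sequenced read (0.92 on the log2 scale, 0.81 to 1.03). In siEgg cells the sums were 1158 input and 1021 ChIP reads, a log2 ratio of 0.25 (0.13 to 0.37). The ratio was thus lower after Egg knockdown by a log2 difference of -0.67 (-0.83 to -0.51). The difference lay in the ChIP libraries, where the log2 ratio of siEgg to siEGFP was -0.70 (-0.81 to -0.59), while that between the inputs was -0.03 (-0.15 to 0.09). No single gene carried it: without RpL5, which holds the most reads, the sums gave 0.78 in siEGFP and 0.27 in siEgg.

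Per gene, the ratio was taken as log2 of ChIP over input RPKM with 0.6 added to each. Over all 93 genes the median was 0.55 in siEGFP cells and 0.26 in siEgg cells, while over the 16605 genes of the table with any read it was -0.28 and -0.02. Of the 93 genes, 70 lay above 0 in siEGFP, a share of 75.3% against 34.1% of all genes with a read. The interquartile range of the ribosomal protein genes was 0.02 to 1.11. Under a filter that also counts ChIP reads, all genes tested had a median of -0.29 in siEGFP. Relative to it the median of the ribosomal protein genes tested was 0.98. That filter favours genes with many ChIP reads. With 10 or more reads in each input the siEGFP medians were -0.33 over all genes and 0.52 over the ribosomal protein genes.

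A gene was called enriched when its ratio reached 2-fold (1 on the log2 scale) with an exact 95% counting interval above 0, and depleted in the mirror case. With every gene read, whatever its depth, 26 of the 93 ribosomal protein genes were enriched in siEGFP (28%), against 5.47% of all genes and transposons. Where at least 10 reads were asked of each input, which leaves the ChIP out of the choice, 44 of the 93 genes remained and 13 of them were enriched (29.5%), against 4.17%. Under the filter used for the named calls, at least 10 reads in at least 2 libraries, 67 of the 93 were tested, 23 of these only through a ChIP library. Of these 67, 23 were enriched against 5.68% of everything tested, and 0 were depleted against 7.61%. Call shares depend on depth: of other genes tested with 8 to 14 siEGFP input reads, 12.4% were enriched and only 2.28% depleted. The absence of depleted calls is therefore not read as a trait of the ribosomal protein genes. RpS7 at 1.03 was the last gene inside the threshold and RpL28 at 0.99 the first outside.

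Ribosomal protein genes are short, so other short genes were set beside them. The 3202 other genes whose longest row measures 621 to 1095 bases, the interquartile range of the ribosomal protein genes, had a median of -0.21 and 9.18% of them were enriched without a filter. The 3016 other genes with 8 to 14 siEGFP input reads had a median of -0.20 and 8.98% were enriched. Both shares lay above that of all genes and below that of the ribosomal protein genes.

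**Figure D1:**
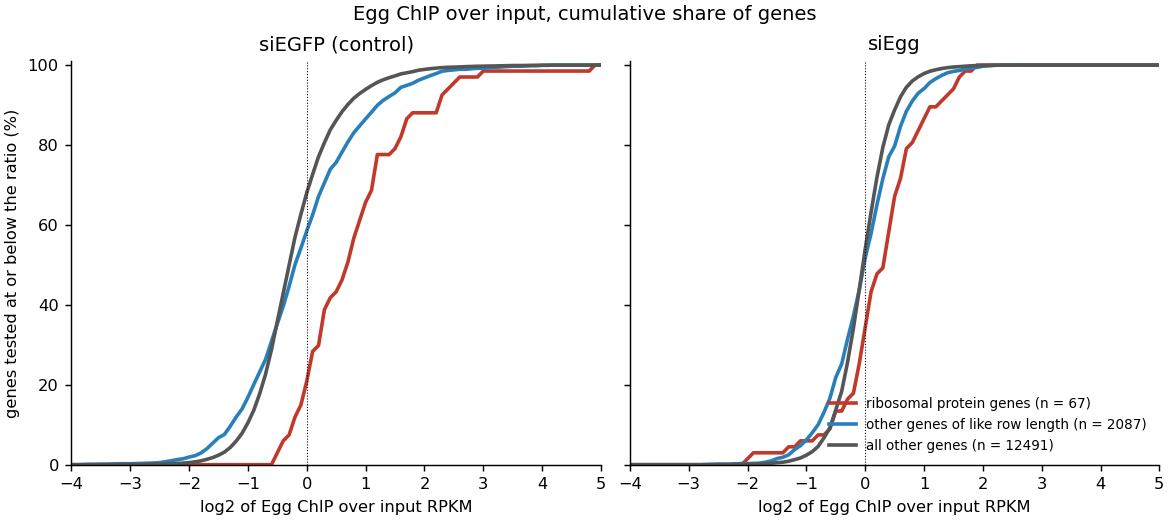
Cumulative share of genes tested (vertical axis, %) at or below each log2 ratio of Egg ChIP over input RPKM (horizontal axis) in siEGFP and siEgg cells, for 67 ribosomal protein genes, 2087 other genes of like row length and 12491 other genes. The red curve of the ribosomal protein genes lies to the right of both others in siEGFP cells, with a median of 0.69. It lies closer to them in siEgg cells, with a median of 0.30. The genes tested passed a filter that counts ChIP reads. With 10 or more reads in both inputs the medians of the ribosomal protein genes were 0.52 and 0.03.

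In siEgg cells 6 ribosomal protein genes were enriched against a background of 1.3%, and 3 were depleted against 1.16%. The enriched calls rest on the filter that counts ChIP reads: among the 44 genes with 10 or more reads in both inputs 0 were enriched and 3 depleted, with a median of 0.03. RpL38 and RpL15 were enriched in both knockdowns. The other siEgg enriched genes were RpS15, RpS16, RpS10b and RpS19a, all of the small subunit. RpL38 had 15 siEgg input reads and the other 5 genes between 4 and 9.

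Of the 6 members on chromosome 4 or next to a centromere (2L from 22 Mb, 2R to 6 Mb, 3L from 23 Mb, 3R to 4 Mb and X from 22 Mb in dm6), 5 were enriched in control cells. With 10 or more reads in both inputs it was 3 of 4, against 4.17% of everything tested. RpL38 and RpL15 had too few input reads for that filter. RpL5 (2L:22532279-22536884) encodes the protein that binds 5S ribosomal RNA and carries it to the large subunit. It held 56 input and 241 ChIP reads in siEGFP and 84 input and 63 ChIP reads in siEgg. The siEGFP ChIP stood far above the other libraries, at 34.97 RPKM against 6.69 to 9.67. Its log2 ratio was 2.29 (1.96 to 2.83) in siEGFP and 0.02 (-0.48 to 0.51) in siEgg, a change of -2.27 (-2.90 to -1.64), the narrowest interval of any ribosomal protein gene.

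RpL21 (2L:22247111-22247875), a large subunit protein, lies in the same stretch of 2L. It held 10 input and 41 ChIP reads in siEGFP and 11 and 8 in siEgg. Here too the siEGFP ChIP alone was high, with ratios of 2.22 (1.29 to 3.48) and -0.02 (-1.54 to 1.42). RpS3A (4:65225-67207), a small subunit protein near the exit of the mRNA, held 13 and 57 reads in siEGFP and 17 and 16 in siEgg. Its ratios of 2.27 (1.53 to 3.41) and 0.32 (-0.73 to 1.42) repeat that order.

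RpL38, on 2R next to the centromere, encodes a small protein of the large subunit. It held 5 input and 38 ChIP reads in siEGFP and 15 and 24 in siEgg, so the ChIP was higher than the input in both. RpL15 (3L:27267255-27268445), a further large subunit protein, held 9 and 49 reads in siEGFP and 8 and 20 in siEgg. Its ratio was 2.56 (1.69 to 3.94) in siEGFP and 1.60 (0.51 to 3.15) in siEgg, and its change of -0.96 had an interval that held 0 (-2.49 to 0.57).

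RpL10 (3L:23093190-23095471), which completes the large subunit late in its assembly, was the exception among the 6. It held 11 and 9 reads in siEGFP and 14 and 8 in siEgg, with a ratio of -0.01 (-1.46 to 1.40) in control cells. All 4 libraries of RpL10 lay between 5.97 and 7.74 RPKM. Its neighbour CkIIalpha, a kinase subunit 1601 bases away, held 30 input and 127 ChIP reads in siEGFP and 30 and 32 in siEgg.

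Over all genes in these regions, 297 were tested and 25.9% were enriched in siEGFP, a share above that of all genes. The 6 ribosomal protein genes summed to 104 input and 435 ChIP reads in siEGFP, a log2 ratio of 2.35 (2.03 to 2.67), and to 149 and 139 in siEgg, 0.33 (-0.01 to 0.68). The 87 members elsewhere summed to a log2 ratio of 0.65 (0.53 to 0.77) in siEGFP and 0.24 (0.11 to 0.37) in siEgg. The excess in control cells was therefore also present on the chromosome arms. Without a filter 21 of the 87 were enriched (24.1%, against 5.47% of all genes and transposons). With 10 or more reads in both inputs 10 of 40 were (25%, against 4.17%). Under the filter that counts ChIP reads it was 18 of 61, against 5.68%.

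**Figure D2:**
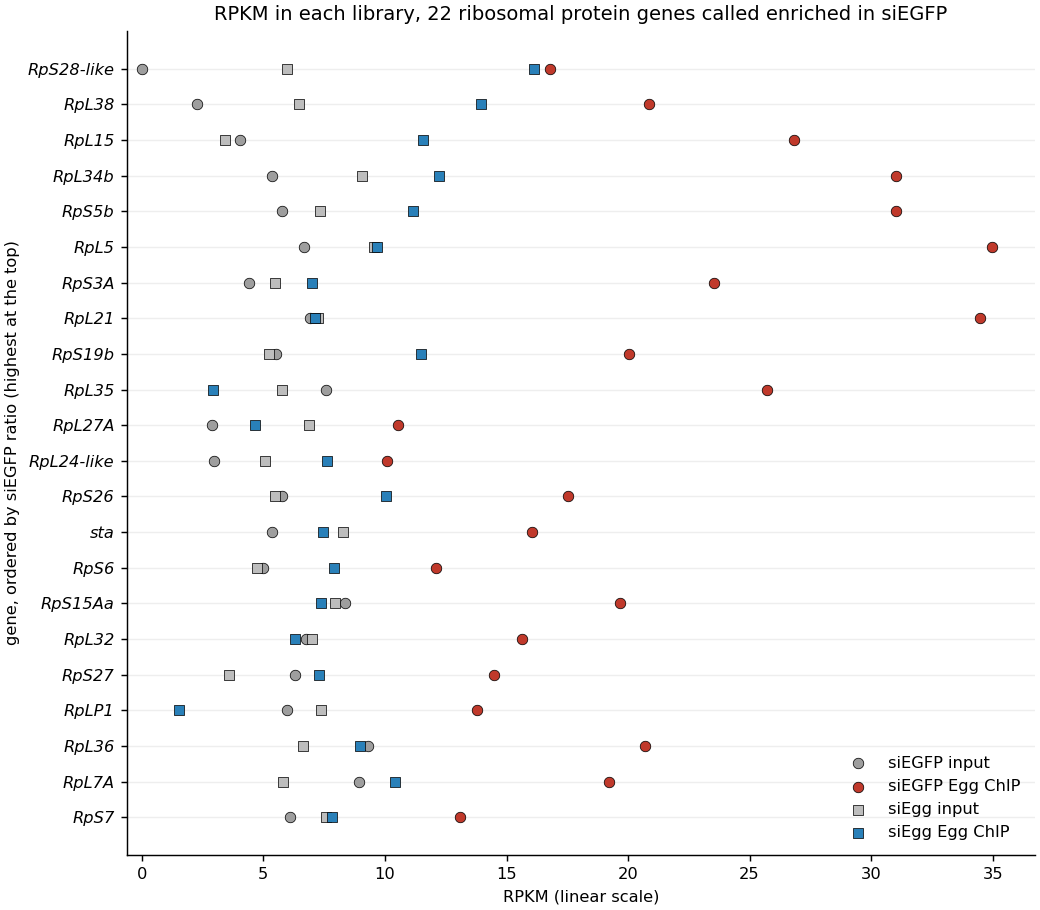
RPKM (horizontal axis, linear) of 22 of the 23 ribosomal protein genes called enriched in siEGFP cells, 1 gene per row with the highest ratio at the top and 1 point per library. The red points of the siEGFP Egg ChIP are the highest of the 4 libraries in every row, which the call itself favours, and reach 34.97 RPKM at RpL5, while the blue points of the siEgg ChIP lie mostly near the inputs.

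The counts of enriched genes by arm were as follows, with no test between arms. On 3R 8 of 16 genes tested were enriched, on X 6 of 14 and on 2L 4 of 13, while on 2R 0 of 10 and on 3L 0 of 8 were. Without the filter the counts were 9 of 23, 6 of 15, 4 of 17, 2 of 20 and 0 of 12, the 2 on 2R being RpS23 and RpL31. Over all genes tested on these arms the shares were between 4.37% on 3R and 6.65% on X. Members on 3L had 193 input and 151 ChIP reads in siEGFP, a log2 ratio of -0.07 (-0.39 to 0.24). Members on 2R summed to 0.57 (0.27 to 0.88).

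Both subunits stood above 0 in control cells. The 39 small subunit genes summed to 450 input and 669 ChIP reads in siEGFP, a log2 ratio of 0.85 (0.68 to 1.03), and 11 of 28 tested were enriched. The 54 large subunit genes summed to 677 and 1086 reads, 0.96 (0.82 to 1.10), and 12 of 39 tested were enriched. The share over everything tested was 5.68%. With 10 or more reads in both inputs 8 of 16 small and 5 of 28 large subunit genes were enriched, against 4.17%. Their medians under that filter were 0.98 and 0.26, with no test between the subunits. In siEgg cells the small subunit stood at 0.46 (0.27 to 0.66) and the large subunit at 0.12 (-0.04 to 0.27). The change was -0.39 (-0.65 to -0.13) for the small and -0.85 (-1.05 to -0.64) for the large subunit. The large subunit contains RpL5, RpL10, RpL15, RpL21 and RpL38, which lie next to a centromere. Their part in the difference between the subunits was not tested.

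Among the small subunit genes on the arms, RpS26, which lies at the mRNA exit channel, held 14 input and 35 ChIP reads in siEGFP and 14 and 19 in siEgg. Its ratio was 1.51 (0.67 to 2.61) in control cells and 0.81 (-0.20 to 1.98) in knockdown cells, and the change was not called. sta held 13 and 32 reads in siEGFP and 21 and 14 in siEgg, a ratio of 1.48 (0.61 to 2.63) in control cells and -0.14 (-1.24 to 0.89) in knockdown cells.

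RpS6, whose protein is phosphorylated by S6 kinase downstream of insulin and TOR signalling, held 13 input and 26 ChIP reads in siEGFP and 13 and 16 in siEgg. Its ratio was 1.19 (0.27 to 2.36) in control cells and 0.67 (-0.42 to 1.91) in knockdown cells, with no called change. RpS7 and RpS27, further small subunit proteins, were enriched in siEGFP at 1.03 and 1.13, both close to the threshold. RpS2 and RpS3, which with RpS3A line the path of the mRNA, were not enriched, at 0.13 and -0.43.

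The 3 genes of the decoding centre summed to a log2 ratio of 0.97 (0.23 to 1.74) in siEGFP. RpS15 had a siEGFP ratio of 0.59 (-0.62 to 1.91), RpS30 of 0.65 (-0.67 to 2.12), and RpS23, with 6 input and 16 ChIP reads, lay at 1.53 (0.27 to 3.34), a call made only without the filter on reads. RpS15, whose protein contacts the A-site, was enriched in siEgg at 1.83 (0.49 to 3.83), with 5 input and 15 ChIP reads.

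Proteins of the stalk recruit translation factors to the large subunit, and its 3 genes did not behave alike. RpLP1 held 10 input and 19 ChIP reads in siEGFP and 13 and 2 in siEgg. It moved from enriched, 1.13 (0.03 to 2.47), to depleted, -1.90 (-5.46 to -0.12). RpLP0 had 27 and 16 reads in siEGFP and 19 and 18 in siEgg, with ratios of -0.44 and 0.33, and RpLP2 had ratios of 0.69 and 0.70. The intervals of the changes of RpLP0 and RpLP2 held 0.

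At the mouth of the peptide tunnel, RpL35 held 10 input and 28 ChIP reads in siEGFP and 8 and 3 in siEgg, ratios of 1.69 (0.68 to 2.97) and -0.85 (-3.53 to 1.08). RpL17, RpL19 and RpL23A were tested and not enriched, at 0.90, 0.80 and 0.07. RpL31 at 1.52, RpL26 at 0.02 and RpL39 at -0.64 were below the filter. RpL11, which joins RpL5 and 5S RNA in the precursor particle, lay at 0.25 (-1.14 to 1.70), while RpL5 was among the highest. The ubiquitin fusion genes RpS27A and RpL40, each of which encodes a ribosomal protein joined to ubiquitin, had 5 input and 2 ChIP reads and 8 and 7 in siEGFP and were below the filter.

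Of the remaining large subunit genes, RpL27A (4 input and 12 ChIP reads), RpL32 (11 and 21), RpL36 (12 and 22) and RpL7A (22 and 39) were enriched in siEGFP at 1.67, 1.15, 1.11 and 1.06. RpL32 is the gene known as rp49, a common reference transcript in fly expression work. The lowest ratios among the genes tested were those of RpL10Ab at -0.60, RpL18 at -0.59, RpLP0 at -0.44, RpS3 at -0.43 and RpL37A at -0.39, and the interval of each held 0.

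Some ribosomal proteins have related genes with names that differ in a last letter, a number or the ending -like. Leaving out RpS28-like, whose siEGFP input is at 0, 13 pairs of paralogues could be set side by side in siEGFP, and in 4 of them the interval of the difference excluded 0. RpL34a held 8 input and 6 ChIP reads and RpL34b 9 and 43, so the copies had like inputs and unlike ChIPs. The difference was 2.53 on the log2 scale (0.74 to 4.32).

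RpS19b and RpS5b are the copies known for use in the female germ line, and in the fly ovary the silencing of RpS19b in the germ line depends on SETDB1. RpS19a held 22 input and 15 ChIP reads in siEGFP, and RpS19b 8 and 24. RpS19b thus stood above its partner by 2.01 (0.55 to 3.48). RpS5a held 14 and 23 reads and RpS5b 12 and 53, a difference of 1.38 (0.08 to 2.67), with the b copy again the higher. In siEgg cells the ratios were 1.53 for RpS19a and 1.05 for RpS19b, and 0.12 for RpS5a and 0.57 for RpS5b. The change of RpS19b, -0.71 (-2.38 to 0.97), was not called, while RpS5b was called fallen. RpS19a had 22 input reads in siEGFP and 9 in siEgg. Whether either pair difference depends on Egg was not tested.

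In siEGFP cells RpS28a and RpS28b went the other way, with the a copy the higher. RpS28a held 3 and 17 reads and RpS28b 10 and 12, a difference of b minus a of -2.14 (-4.17 to -0.10), with RpS28a below the filter on reads. The related gene RpS28-like held 0 input and 11 ChIP reads in siEGFP and 5 and 10 in siEgg. With its input put at a floor of 3 reads the ratio of RpS28-like would be 4.45-fold, and the lower limit of its exact interval was 1.61 on the log2 scale. Its fitted log2 value depends on the 0.6 added and is not used, and the median of the genes tested stayed at 0.69 with the gene at the value set by the floor.

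In the other 9 pairs the interval of the difference held 0, from RpL22-like over RpL22 (0.96, -0.58 to 2.49) to RpS15Ab over RpS15Aa (-0.92, -2.70 to 0.87). RpS15Aa and RpL24-like were themselves enriched in siEGFP, at 1.18 and 1.58. How alike the genes of a pair are was not measured, and how the authors placed reads that match both genes was not given in the sources used here.

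**Figure D3:**
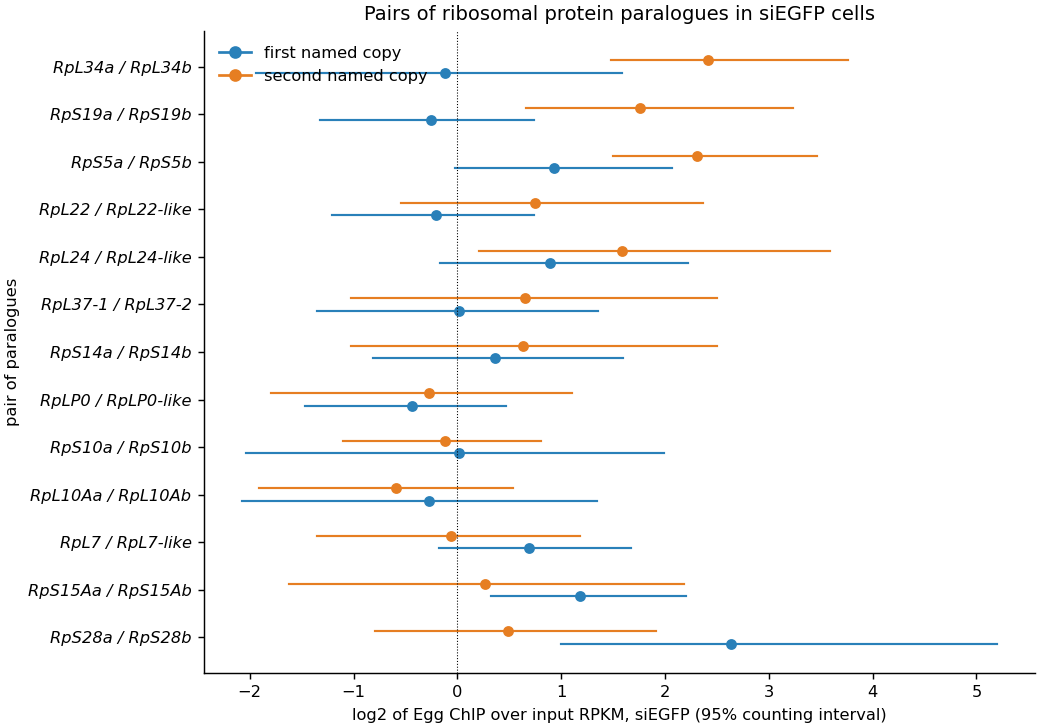
Log2 of Egg ChIP over input RPKM in siEGFP cells (horizontal axis) for 13 pairs of ribosomal protein paralogues (vertical axis), the first named copy in blue and the second in orange, with exact 95% counting intervals. RpL34b, RpS19b and RpS5b lie to the right of their partners, and RpS28a to the right of RpS28b.

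Under Egg knockdown 11 of the 67 genes tested fell by at least 2-fold with an interval below 0 (16.4%, against 3.38% of everything tested). A rise was called in 2 (2.99%, against 5.08%). Of other genes tested with 8 to 14 siEGFP input reads 5.78% fell and 1.62% rose, so the share that rose was not low for this depth. With no filter, 11 of 93 fell against 3.1%, and among the 44 genes with 10 or more reads in both inputs 7 fell against 2.78%. The median change over all 93 genes was -0.38, while that over all genes with a read was 0.22. All 11 genes that fell were enriched in siEGFP, and the control libraries are part of both values, so the overlap is no separate result.

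Of the 11 genes that fell, 10 are named here: RpLP1 (-3.03), RpL35 (-2.54), RpL5 (-2.27), RpL21 (-2.25), RpL27A (-2.19), RpL34b (-2.0), RpS3A (-1.95), RpL38 (-1.86), RpS5b (-1.74) and sta (-1.62). RpL5, RpL21, RpL34b and RpS3A held this call under every alternative in which they were tested. RpL34b, with 9 siEGFP input reads, was not tested under the filters on input reads alone. For RpL38 the siEgg input was also higher, 15 reads against 5, and between the ChIPs alone the log2 ratio of siEgg to siEGFP was -0.56, so the call rested in part on the input.

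The 2 genes that rose were RpS19a and RpS10b, both small subunit genes with a paralogue. RpS19a held 22 input and 15 ChIP reads in siEGFP and 9 and 21 in siEgg, and RpS10b 24 and 18 in siEGFP and 9 and 21 in siEgg. In both genes the siEgg input was the lowest library and the ChIP libraries differed by 6 and 3 reads. The changes were 1.78 (0.34 to 3.23) and 1.59 (0.18 to 2.99), and with both inputs pooled neither was called.

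**Figure D4:**
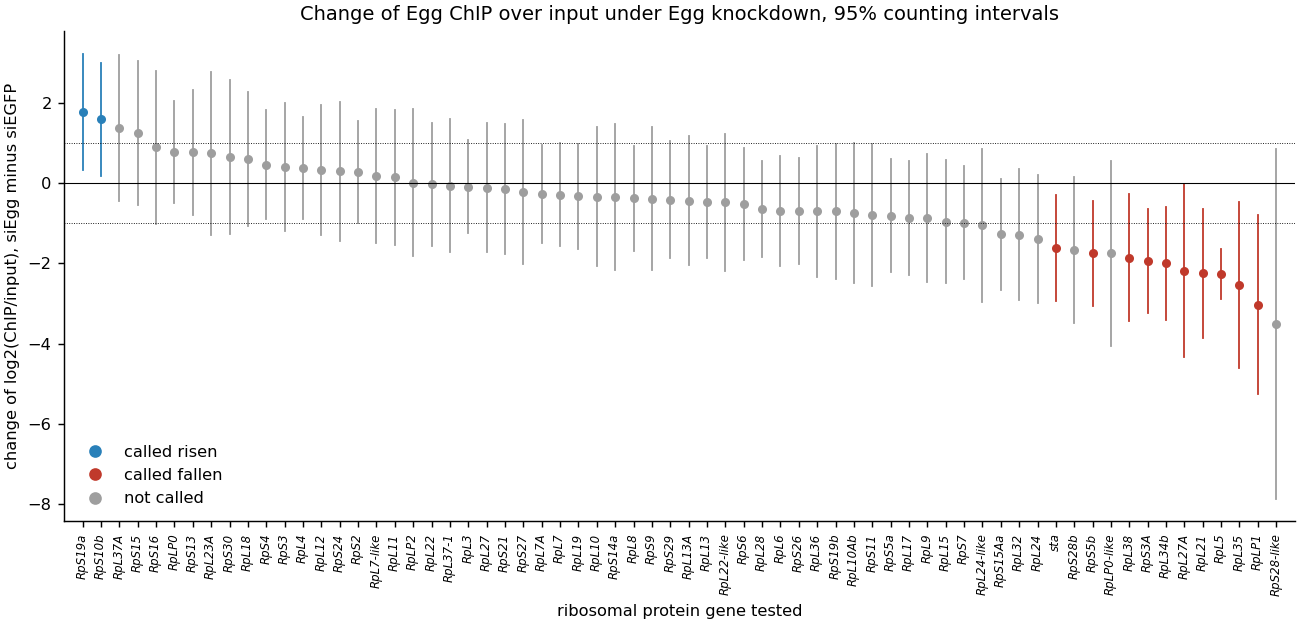
Change of log2 ChIP over input from siEGFP to siEgg (vertical axis) for 66 of the 67 ribosomal protein genes tested (horizontal axis), each with its 95% counting interval from the 4 read counts. The 10 genes called fallen that are shown are red and lie between -3.03 and -1.62, the 2 called risen are blue, and most other intervals span 0.

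Related gene lists were read in the same way. The 73 genes of mitochondrial ribosomal proteins, which build the separate ribosome of the organelle, summed to 906 input and 1199 ChIP reads in siEGFP, a log2 ratio of 0.69 (0.56 to 0.81), and to 0.18 (0.04 to 0.33) in siEgg. Of these, 11 of 50 tested were enriched in siEGFP (22%, against 5.68% of everything tested). Among the 35 with 10 or more reads in both inputs 6 were enriched (17.1%, against 4.17%). Their median was -0.04, against -0.33 over all genes under that filter. The 35 translation factor genes summed to 0.36 (0.24 to 0.48) with 5 of 33 enriched (15.2%). The 31 genes of ribosome biogenesis, among them the factors of RNA polymerase I and the nucleolar assembly proteins, summed to -0.28 (-0.43 to -0.13). Of these, 1 of 28 tested was enriched (3.57%, against 5.68%), too few genes to set the shares apart. By summed reads the mitochondrial list and the translation factors thus stood above 0 in control cells. All genes but the ribosomal protein genes summed to -0.16, which lies inside the interval of the biogenesis genes. The medians of the genes tested were -0.24 for biogenesis and -0.30 for all genes but the ribosomal protein genes.

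**Figure D5:**
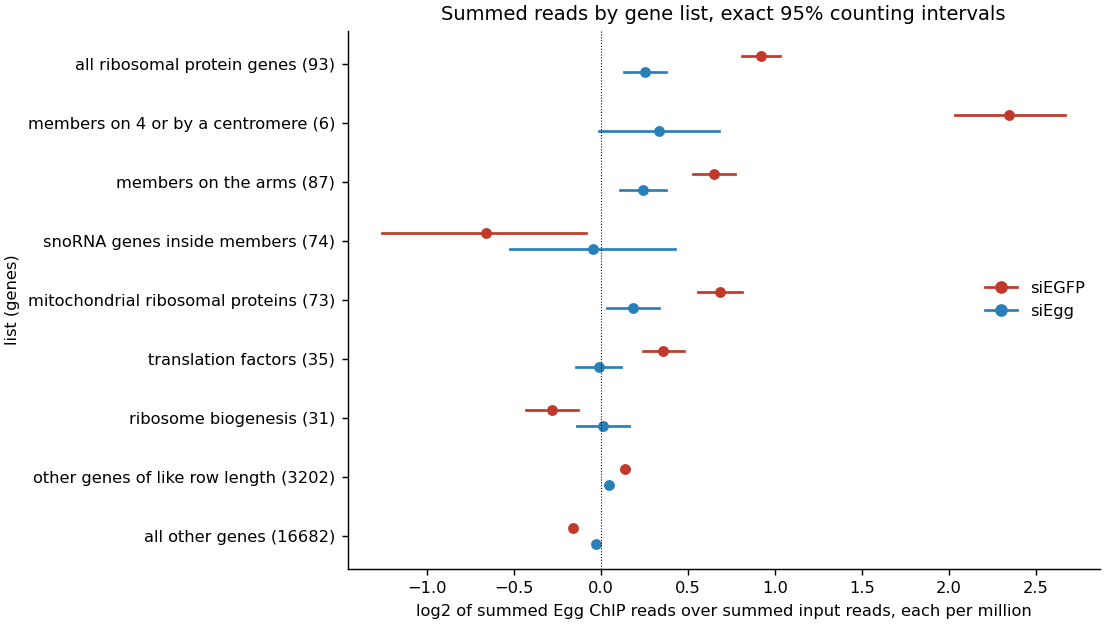
Log2 of summed Egg ChIP reads over summed input reads, each per sequenced read (horizontal axis), for gene lists (vertical axis, number of genes in brackets) in siEGFP (red) and siEgg (blue) cells, with exact 95% counting intervals. The ribosomal protein genes stand at 0.92 and 0.25, the mitochondrial ribosomal proteins at 0.69 and 0.18 and the biogenesis genes at -0.28 and 0.01.

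Many ribosomal protein genes host small nucleolar RNAs, which guide the modification of ribosomal RNA, within their span. By the reference positions, 74 snoRNA genes lie inside 29 of the 93 genes. Their rows held 75 input and 39 ChIP reads in siEGFP, a log2 ratio of -0.66 (-1.26 to -0.09), while the host genes held 439 and 797 reads, 1.14 (0.97 to 1.31). In siEgg the snoRNA rows held 92 and 66 reads, a ratio of -0.05 (-0.52 to 0.43). The 184 other snoRNA genes of the table stood at -0.22 (-0.56 to 0.12) in siEGFP. The rows of the hosts and of the snoRNA genes inside them therefore pointed to opposite sides of 0 in control cells. All genes but the ribosomal protein genes summed to -0.16, which lies inside the interval of these snoRNA rows, as does -0.22. A snoRNA row is much shorter than a host row, and its part in this difference was not tested.

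Genes beside the ribosomal protein genes were read next. Within 5 kb of the 93 genes lay 439 genes that are no members, of which 306 were tested and 34 were enriched in siEGFP (11.1%), with a median of -0.11. The share over everything tested was 5.68%. Beside the 23 enriched members 13 of 75 were enriched (17.3%), and beside the others 21 of 231 (9.09%). Of the enriched members 5 lie on chromosome 4 or next to a centromere, where 25.9% of all genes tested were enriched. The neighbours were not split by region. Some neighbours lie beside more than 1 member and were counted once.

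Several members stood beside a gene with a larger ChIP excess than their own. CG17490, 784 bases from RpL5, held 25 input and 280 ChIP reads in siEGFP and 30 and 30 in siEgg. The mitochondrial ribosomal protein gene mRpL27, 231 bases from RpL27A, held 13 and 114 reads in siEGFP and 10 and 30 in siEgg. The splicing factor gene ncm, 1230 bases from RpS26, held 60 and 248 reads and 55 and 55. Each of the 3 neighbours was far higher in the siEGFP ChIP than in any other library.

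Beside sta, the gene inc held 72 input and 199 ChIP reads in siEGFP, and beside RpL32, CG7943 held 21 and 82. Tif-IA, an initiation factor of RNA polymerase I and a member of the biogenesis list, lies 2001 bases from RpL21 and held 13 and 38 reads. Other members lay beside a high gene without being enriched. RpS27A, at 5 input and 2 ChIP reads, is 155 bases from the ionotropic receptor gene Ir31a, which held 28 and 143. The ratio of a ribosomal protein gene therefore did not always follow that of the nearest gene.

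In siEGFP cells the ratios varied among the ribosomal protein genes by more than counting alone gives. Over the 44 genes with 10 or more reads in both inputs the SD of the log2 ratio was 0.79 in siEGFP, where counting error alone comes to 0.51. In siEgg it was 0.63 against 0.58. Over the 11653 other genes the values were 0.67 against 0.46 in siEGFP and 0.43 against 0.44 in siEgg.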

How the data were processed

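The Egg ChIP and input libraries were read from 1 deposited table with 4 value columns and 0 unused ones. No label names the unit; the deposited values fit RPKM, since in all 34762 rows with a value above 0 they were whole multiples of 1 read within 0.0001 reads and 1e-06 of the count. Bowtie2 2.2.4 and dm6 are named in the submitters' processing notes; other steps are not given in the sources used here. Depths were anchored on small RNA rows, of which 831 of 960 gave the same depth. Where the 4 counts of a row share a factor, reads may be understated and intervals too wide.

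Rows were summed per gene, and RPKM used the longest row. Ratios carried a pseudocount of 0.6 RPKM (the median siEGFP input divided by 10), exact Clopper-Pearson 95% intervals for ChIP over input, and normal intervals with 0.5 added to each count for changes and pair differences. With 1 column per group no p-value was given. Named genes were those called, the 5 highest and 5 lowest ratios and changes, those by a centromere or on chromosome 4, paralogues and fixed role groups. Members and lists were chosen with earlier results of these data known. Symbols and positions came from the RefSeq table of dm6. The calls and the recovery were tested on simulated data. Alternatives covered the pseudocount, filters, scaling, pooled inputs, single rows, left-out gene groups and ChIP alone. No sequence was used. The values of 1 gene are not reported here, though it is in the counts. Computation used Python 3.11.15 with numpy 2.4.6, pandas 2.3.3 and scipy 1.17.1.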

Additional observations from a re-analysis of the deposited data

Results flagged for a closer look

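In 3 ribosomal protein genes the siEgg ratio was called on the other side of 0 from the siEGFP ratio, each with 1 column per condition, so the difference was not tested against a replicate spread. RpLP1 changed by -3.03 on the log2 scale, from 19 to 2 ChIP reads with 10 and 13 input reads. RpS19a changed by 1.78, from 15 to 21 ChIP reads with 22 and 9 input reads. RpS10b changed by 1.59, from 18 to 21 ChIP reads with 24 and 9 input reads. In the RpS genes the input moved more than the ChIP, and in RpLP1 the ChIP moved more than the input.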

How the results depend on the processing

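No paired analysis was possible because the columns carry no replicate number, and for the same reason no replicate could be left out. The values reported were medians over the genes tested of 0.69 (siEGFP), 0.30 (siEgg) and -0.45 (change), with 23 enriched and 0 depleted in siEGFP, 6 and 3 in siEgg, and 2 risen and 11 fallen. With a pseudocount 5 times larger the siEGFP median was 0.53, with 15 enriched, 0 risen and 5 fallen. At least 20 reads in each input left 3 members and turned the medians to -0.05 (siEGFP) and -0.14 (siEgg), with 1 enriched in siEGFP, 0 enriched and 0 depleted in siEgg, 0 risen and 1 fallen; too few genes were left for this to say more. Without a filter the siEGFP median was 0.55. Centring on all genes gave 0.98 in siEGFP and -0.67 for the change, with 1 risen, and quantile scaling gave 0.58. Over all genes tested, centring moved the split from 715 enriched and 965 depleted in siEGFP to 1164 and 320 (598 and 322 by quantile scaling), and from 643 risen and 426 fallen to 278 and 708 (321 and 376). Pooled inputs gave 0.18 in siEgg with 0 risen, and the ChIPs without inputs gave 0 risen. With the row of most siEGFP input reads per gene only, 24 members were tested. The siEGFP median was then 0.32 with 4 enriched and 1 depleted. In siEgg 3 were enriched and 1 depleted, and the change was -0.08 with 1 risen and 1 fallen. Choosing the row by its siEGFP input reads itself favours a lower siEGFP ratio and a higher change. Without members by a centromere or on chromosome 4, 7 had fallen; without paralogues, 1 was depleted in siEgg and 0 had risen. At least 10 reads in each input, a filter added after the data were seen, gave medians of 0.52 and 0.03, with 13 enriched in siEGFP, 0 enriched in siEgg, 0 risen and 7 fallen. Of the 23 enriched genes 14 were called under every alternative in which they were tested, of the 11 fallen 4, and of the 2 risen 0. Genes with fewer than 10 reads in either input, RpL34b and RpL15 among them, were not tested under the filters on input reads alone. Calls at 10 to 20 reads are limited by depth. The promoter motifs planned were not run.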

Other observations

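The reads of a ribosomal protein gene are divided among its transcript rows, and 26 members had 2 or more rows and at least 20 siEGFP ChIP reads. The row with the most ChIP reads held a larger share of the ChIP than of the input in 21 of them, which its choice favours, and a smaller share in 5, RpL19, RpS6, RpS19b, RpL6 and RpL13. The largest gaps were in RpL35, RpL34b and RpL7A. In RpL35 the row with the most ChIP reads held 19 of the 28 siEGFP ChIP reads but 1 of the 10 input reads. In RpL34b it held 34 of 43 ChIP and 2 of 9 input reads, and in RpL7A 29 of 39 and 5 of 22. In these 3 genes the input was spread over the rows more than the ChIP was.

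Over the 26 genes the rows with the most ChIP reads summed to 161 input and 633 ChIP reads, and the other rows to 232 and 391. Since the top row was chosen by its ChIP reads its ratio is a description. The other rows had a median log2 ratio of 0.91 and lay below 0 in 2 of the 26 genes, RpL7A and RpS4. The choice of the top row disfavours these rows, while the choice of genes by their ChIP reads favours them. Their ratio is therefore a description as well. In RpL5 the top row held 208 of 241 ChIP and 45 of 56 input reads, shares of 86.3% and 80.4%. Which part of the gene each row covers was not tested.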
